A study of Mus musculus with 6 samples.

Results

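Genes for the shape, renewal and protein quality control of mitochondria were followed in splenic memory B cells, wild type (WT) or of the genotype Nix-/-Bnip3-/- (labelled DKO); Nix is the gene Bnip3l. The 52 genes were chosen by symbol for their function: fusion, fission, transport, cristae, regulators of biogenesis, expression of mitochondrial DNA, chaperones, and proteases. A row was found for 51 of them among the 35186 symbols counted, with Twnk, the mitochondrial DNA helicase, as the exception. Of these 51, 29 had enough counts to be tested. Both groups were C57BL/6J mice, with 3 libraries each from about 1000 cells sorted for binding the hapten NP. The age of the animals, the exons removed and any Cre driver were not given in the sources used here. Nor is it stated whether libraries of a group were separate animals, so p-values measure the spread between these libraries, which may be technical.

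Mitochondria form a network that fuses through the GTPases MFN1, MFN2 and OPA1 and divides through the GTPase DRP1, which adaptors of the outer membrane recruit. New mitochondria are made when coactivators of the PGC-1 family act with the transcription factors NRF1, GABPA and the estrogen-related receptors, which raise the nuclear genes for TFAM and the mitochondrial polymerases. Imported proteins are folded by chaperones of the matrix, and damaged ones are degraded by proteases such as LONP1, CLPXP and the m-AAA protease. BNIP3L and BNIP3 are receptors that mark mitochondria for autophagy, a removal step that stands opposite to biogenesis.

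The libraries were shallow and the groups differed as wholes. Total counts ran from 312908 to 517057, and 17831 to 18486 symbols had a count in the WT libraries against 23580 to 24787 in those labelled DKO. TMM applies a scaling factor per library for differences in composition, which does not change the number of symbols with a count. These factors were 0.695 to 0.812 in WT against 1.28 to 1.38 labelled DKO, so they split with the label too. With them the median log2 fold change (labelled DKO against WT) of the 8895 genes tested was -0.17, and with library totals alone it was 0.62, and a member's value has to be set beside these shifts. The targeted genes went partly against the labels: Bnip3l had 1, 8 and 0 counts in WT, in the order of libraries 1, 2 and 3, and 10, 16 and 41 labelled DKO, while Bnip3 had 25, 62 and 6 against 2, 24 and 11. Counts per gene do not show a deleted exon, so directions below are between libraries as labelled.

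Some defining B cell genes were nearly absent. Cd79a, a chain of the B cell receptor complex, had 3, 0 and 0 counts in WT and 0, 2 and 4 labelled DKO, while Ms4a1, which encodes the surface protein CD20, had 28, 0 and 8 against 42, 70 and 65. The 8 B cell markers summed to 179 to 383 normalized CPM (CPM of the TMM-scaled library) in WT and 202 to 277 in the libraries labelled DKO, and the 9 memory B cell markers to 221 to 350 and 254 to 323. Sums over some lists of other cells moved with the label. The 6 monocyte and macrophage markers counted summed to 41.8 to 257 against 366 to 763, 5 stromal and endothelial markers to 431 to 726 against 190 to 276, and 6 red cell markers to 58.0 to 120 against 14.7 to 22.6, with Hba-a2 and Hbb-bs at 0 in every library and Hba-a1 and Hbb-bt at 0 in all those labelled DKO. Cd14, a monocyte marker, had 1 count in all, so that list moved without it. The markers of a list did not all move alike. Lyz2 had 4, 0 and 10 counts in WT and 35, 92 and 206 labelled DKO. Spic, of the same list, had 2, 13 and 12 against 4, 9 and 13, and Csf1r 0, 43 and 5 against 15, 10 and 27. Col1a1 had 107, 22 and 22 against 18, 5 and 5. Pecam1, of the same list, had 13, 5 and 3 against 72, 55 and 60, and Dcn 2, 3 and 4 against 5, 11 and 26. The other lists overlapped: 6 germinal centre markers at 209 to 301 against 163 to 806, 5 plasma cell markers at 94.0 to 194 against 60.0 to 342, 7 T cell markers at 188 to 982 against 143 to 225 and 6 neutrophil markers at 158 to 368 against 120 to 1234. The part of these differences in the values below was not tested. In RNA from sorted pools, fewer cells of a type and less RNA per cell cannot be told apart.

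Of the 29 tested members, 0 were called by edgeR's quasi-likelihood test at an adjusted p under 0.05, as for all genes (0.0% called), and limma-voom called 0 members and 0.0% of genes. At an unadjusted p under 0.05, 4 members were higher and 1 lower where the label was DKO, beside 5.49% and 6.59% of all tested genes. DESeq2 on the same genes called 2 of the 28 members that had an adjusted p, Mief1 and Ppargc1a, where 7.08% of all genes were called, so the members' share lay near the background. Fitted on all genes with a count, an alternative chosen after seeing the data, DESeq2 called Ppargc1a alone, with 3.21% of all genes called. The members' median log2 fold change was -0.03, with 14 above 0 and 15 below (45.5% of all tested genes lay above 0). With library totals alone the median was 0.71, with 20 above and 9 below (64.3% of all genes above), so the set's direction flipped with the scaling, as did that of all genes.

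Among the 29 tested members, the 3 libraries of each group did not overlap for 7 that were higher where the label was DKO (Mtch2, Mief1, Rhot1, Tefm, Hspa9, Spg7 and Afg3l2) and for 2 that were lower (Ppargc1a and Hspd1). Over all tested genes 12.8% did so on the higher side and 6.39% on the lower. Counted in both directions this was 31.0% of the tested members and 19.2% of all tested genes, and the difference between these shares was not tested. Mief1, Tefm, Spg7 and Afg3l2 met the count filter only through the libraries labelled DKO, and Ppargc1a only through WT. These were also the members with an unadjusted p under 0.05. Hspa9, with 1 count in WT library 1, and Hspd1, with 7 in library 1 labelled DKO, likewise needed libraries of the group in which they were high. The place of all these genes among the tested members thus depended on that group, so their non-overlap is not separate support. The groups of 3 untested members did not overlap either, Mterf1a and Clpp on the higher side and Mtfp1 on the lower, at the low counts given below. With library totals alone the counts were 10 and 2, beside 24.4% and 2.36% of all tested genes. Without 1 library they were 7 to 13 and 2 to 4, with 12 and 4 without WT library 2 and 13 and 3 without WT library 3, while the shares over all genes ran from 15.5% to 23.1% and from 8.95% to 13.3%.

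Promoters of some of these members are shown because NRF1 and GABPA, themselves members, are known to bind promoters of nuclear genes for mitochondrial proteins. RefSeq windows (GRCm38.p6, the mm10 build) of 300 bases, 250 before and 50 after a start, were found for 47 of the 52 symbols. Both strands were searched for the NRF1 motif (GCGCA, any base, then GCGC), the ETS motif CCGGAAGT that GABPA binds, the estrogen-related receptor motif TCAAGGTCA and the cyclic AMP response element TGACGTCA. The NRF1 motif lay in windows of 8 members, 17.0% beside 5.19% of all genes with a window, and the ETS motif in those of 10, 21.3% beside 4.31%. The receptor motif lay in 0 members and 0.466% of all genes, and the cyclic AMP element in 3 members, Trak1, Mterf1a and Trap1, 6.38% beside 2.03%. All genes with a window were not limited to genes tested here or matched to the members for base content. Whether the members differ from such genes was not tested. A match describes the letters only. The sequences below run from 150 bases before the start to 30 after, 5′ to 3′, with NRF1 and ETS matches in capitals; no matches overlapped.
Mief1 (chr15:80233930-80234109, plus strand), with 2 ETS matches: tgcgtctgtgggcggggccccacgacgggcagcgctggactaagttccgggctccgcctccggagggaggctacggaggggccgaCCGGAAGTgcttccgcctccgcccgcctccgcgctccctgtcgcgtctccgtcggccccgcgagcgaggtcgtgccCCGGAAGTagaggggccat
Tefm (chr11:80142124-80142303, minus strand), with 1 ETS match: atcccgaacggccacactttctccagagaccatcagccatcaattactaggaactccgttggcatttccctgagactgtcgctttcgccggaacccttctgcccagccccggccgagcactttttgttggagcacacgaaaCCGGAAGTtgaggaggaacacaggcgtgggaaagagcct
Spg7 (chr8:123065358-123065537, plus strand), with 2 NRF1 matches: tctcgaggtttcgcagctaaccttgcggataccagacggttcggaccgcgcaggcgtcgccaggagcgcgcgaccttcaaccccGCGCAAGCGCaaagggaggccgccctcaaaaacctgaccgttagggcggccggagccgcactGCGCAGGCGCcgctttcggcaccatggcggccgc
Mtch2 (chr2:90847005-90847184, plus strand), with 1 ETS match followed by 1 NRF1 match: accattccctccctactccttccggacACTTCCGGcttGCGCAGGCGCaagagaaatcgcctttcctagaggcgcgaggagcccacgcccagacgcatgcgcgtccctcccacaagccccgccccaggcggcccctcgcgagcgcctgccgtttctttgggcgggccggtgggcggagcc
Hspd1 (chr1:55088214-55088393, minus strand), with 1 NRF1 match: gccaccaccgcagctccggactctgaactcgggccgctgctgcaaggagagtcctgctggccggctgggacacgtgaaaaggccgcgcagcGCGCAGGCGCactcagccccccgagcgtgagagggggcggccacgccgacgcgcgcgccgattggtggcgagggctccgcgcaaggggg
Ppargc1a (chr5:51567696-51567875, minus strand), with none of these motifs: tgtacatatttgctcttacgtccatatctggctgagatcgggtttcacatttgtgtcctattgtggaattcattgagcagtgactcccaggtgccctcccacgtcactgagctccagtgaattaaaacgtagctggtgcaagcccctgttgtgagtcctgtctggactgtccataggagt
Of the 9 tested members whose groups did not overlap, Mtch2, Mief1, Tefm and Spg7, all on the higher side, and Hspd1, on the lower, held an NRF1 or ETS match, Rhot1 and Ppargc1a held none, and Hspa9 and Afg3l2 had no window. Among the untested ones Mterf1a, on the higher side, held an ETS match. Members with these motifs thus lay on both sides.

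Regulators of biogenesis showed the lowest value of the set. Ppargc1a (chromosome 5, 51454250 to 51567726, mm10) encodes PGC-1alpha, the coactivator that drives mitochondrial biogenesis. Its counts were 46, 50 and 10 across WT libraries 1, 2 and 3 and 5, 3 and 9 across those labelled DKO. Every WT library lay above every library labelled DKO, at 240, 193 and 52.5 normalized CPM against 11.3, 5.52 and 17.4. The means were 162 ± 97.7 and 11.4 ± 5.96 (SD, n = 3 each), and the log2 fold change, -3.79 (SE 1.07), had an edgeR adjusted p of 0.39. DESeq2 called it on both gene sets (adjusted p = 0.00258 on the filtered genes and 0.0319 on all genes). Leaving out 1 library gave -4.14 to -3.33, and each of the 6 values was below 0. The counts labelled DKO, from 3 to 9, stand close to the 3 counts taken as the floor in a library.

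The partners of PGC-1alpha did not share that pattern. Nrf1, the transcription factor whose motif is shown above, had 12, 4 and 292 counts in WT and 81, 58 and 37 labelled DKO, so that 77.7% of its summed normalized CPM lay in WT library 3. Its log2 fold change of -2.15 (SE 1.56, edgeR adjusted p = 0.564) became 1.70 without that library. Pprc1, another coactivator of that family, had 19, 17 and 33 counts against 4, 42 and 49, with a low value in library 1 labelled DKO (-0.89, SE 1.03, edgeR adjusted p = 0.726, and -0.22 without that library). Gabpa, the ETS factor, was low in both groups, with 7, 6 and 2 counts against 10, 10 and 22 (0.25, SE 0.95, edgeR adjusted p = 0.933). Its exons share 397 bases with Atp5j on the other strand, and the strand setting of the counting was not given in the sources used here. Ppargc1b, the sister coactivator, was not tested: 210 of its counts were in WT library 2, and the others had 1, 3, 2, 20 and 9. Esrra, the estrogen-related receptor alpha, had 0 to 6 counts in WT and 3 to 10 labelled DKO. Among the 4 tested regulators 1 lay above 0 and 3 below, under both scalings.

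**Figure D1:**
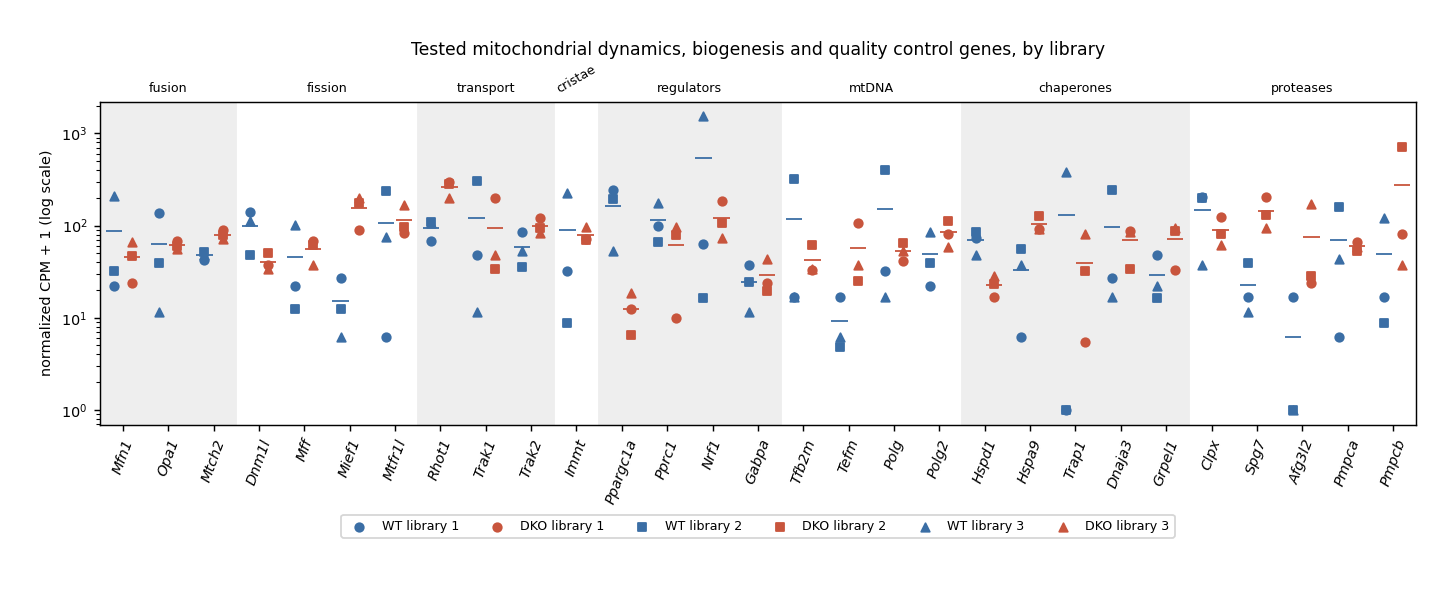
Normalized CPM plus 1 (vertical axis, log scale) of the 29 tested members in each of the 6 libraries, WT in blue and libraries labelled DKO in red, marker shape giving the library number, short lines giving group means and genes ordered by function. Ppargc1a stands out with all 3 libraries labelled DKO below WT, Mief1 and Spg7 with all above, and Nrf1, Trap1 and Pmpcb each have a single library far from the rest.

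Genes that copy and transcribe mitochondrial DNA were sparsely counted, and their tested members lay in both directions. Tefm (chromosome 11, 80136678 to 80142175), the elongation factor that keeps the mitochondrial RNA polymerase on its template, had 3, 1 and 1 counts in WT and 47, 13 and 19 labelled DKO. All 3 libraries labelled DKO were higher, at 55.7 ± 44.3 against 8.26 ± 6.45 normalized CPM (SD, n = 3). No WT count exceeded the floor of 3 counts in a library, so the size of the fold is uncertain. The log2 fold change, 2.73 (SE 1.11), had an edgeR adjusted p of 0.393, and was 3.6 without WT library 1 and 2.00 without library 1 labelled DKO, which held 55.4% of the summed value. Polg2, the accessory subunit of the DNA polymerase gamma, had 4, 10 and 16 counts against 35, 61 and 30, with overlapping groups once normalized (0.80, SE 0.94, edgeR adjusted p = 0.735), and was at 1.53 without WT library 3.

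The catalytic subunit and a transcription factor lay below 0, each with 1 high WT library. Polg, the catalytic subunit, had 6, 104 and 3 counts in WT and 18, 35 and 27 labelled DKO (-1.51, SE 1.19, edgeR adjusted p = 0.598), or 1.19 without WT library 2. Tfb2m, the factor that melts the promoters of mitochondrial DNA, had 3, 82 and 3 against 14, 33 and 17 (-1.48, SE 1.21, edgeR adjusted p = 0.618), or 1.44 without the same library. Polg shares 921 exonic bases with Fanci on the other strand. Both genes thus turned sign on leaving out WT library 2, the library with the most Polg and Tfb2m.

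The remaining genes of this function had too few counts to test. Tfam, which packages and transcribes mitochondrial DNA, had 3, 3 and 0 counts against 3, 3 and 6, with similar means of 9.09 ± 8.13 and 7.98 ± 3.22 normalized CPM (SD, n = 3). Tfb1m, an rRNA methyltransferase, had 1 count in each WT library and 2 to 5 labelled DKO. Polrmt, the mitochondrial RNA polymerase, was counted in WT library 1 (7 counts) and in libraries 1 and 3 labelled DKO (2 and 6). Ssbp1, the single-strand DNA binding protein, had 7, 6 and 0 against 8, 21 and 3. Mterf1a, a termination factor, had 0 counts in every WT library and 2, 10 and 8 labelled DKO. Its mean labelled DKO was 12.8 normalized CPM, and no fold is given at these counts. Taken as the floor, 3 counts are worth 11.6 to 15.8 in single WT libraries and 4.68 over the WT group. This floor allows for counting error alone and may be too low, because reads copied by PCR are not separate molecules. Levels of the polymerase and of TFAM, the core of this machinery, were therefore not resolved at this depth.

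Among fission genes the adaptor Mief1 had the highest value. Mief1 (chromosome 15, 80234018 to 80253371) encodes MiD51, an outer membrane protein that recruits DRP1. Its counts were 5, 3 and 1 in WT and 39, 94 and 103 labelled DKO. The groups did not overlap, with means of 14.3 ± 10.7 and 154 ± 58.1 normalized CPM (SD, n = 3). The WT counts, from 1 to 5, stand close to the floor of 3 counts in a library, so the size of the fold is uncertain. The log2 fold change, 3.40 (SE 1.05), had an edgeR adjusted p of 0.39 and lay between 3.10 and 4.17, the latter without WT library 1, with 1 library left out. DESeq2 called it on the filtered genes (adjusted p = 0.0151) and not on all genes (adjusted p = 0.0626). The annotation places another coding gene, AC140267.1, on the same strand over 213 of its exonic bases.

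Other fission genes did not follow Mief1. Dnm1l, which encodes DRP1 itself, had 27, 12 and 21 counts in WT and 16, 27 and 17 labelled DKO, and WT library 2 lay within the range of the other group (-1.31, SE 0.91, edgeR adjusted p = 0.55). Mff, a further DRP1 receptor, had 4, 3 and 19 against 30, 33 and 19 (0.33, SE 1.02, edgeR adjusted p = 0.917), and 1.83 without WT library 3. Mtfr1l, a regulator of mitochondrial shape, had 1, 61 and 14 against 36, 52 and 85 (0.11, SE 1.13, edgeR adjusted p = 0.983), and 1.56 without WT library 2. Each of these groups overlapped, so the 4 tested fission genes gave 3 values above 0 and 1 below, under both scalings.

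The 5 other fission genes were not tested. Mief2, the paralog of Mief1, had 0 counts in all 6 libraries. Fis1, an outer membrane adaptor, had 0, 3 and 2 counts in WT and 10, 6 and 0 labelled DKO. Mtfr1 rested on 57 counts in library 2 labelled DKO, with 0 to 10 elsewhere. Mtfp1, an inner membrane protein of fission, had 2, 1 and 2 counts against 0, 2 and 0; once normalized its groups did not overlap, but every value is under the floor of 3 counts. Inf2, an actin-assembling formin of the endoplasmic reticulum, had 15, 4 and 0 against 2, 2 and 28.

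Fusion genes gave 1 member with separate groups and 2 with overlapping ones. Mtch2, an outer membrane insertase also linked to fusion, had 8, 13 and 9 counts in WT and 39, 42 and 36 labelled DKO, with little spread in either group. All 3 libraries labelled DKO were higher, at 78.4 ± 9.30 against 46.4 ± 4.28 normalized CPM (SD, n = 3), with a log2 fold change of 0.75 (SE 0.87, edgeR adjusted p = 0.728) and 0.75 to 0.93 with 1 library left out. Mfn1, the outer membrane fusion GTPase, had 4, 8 and 40 against 10, 25 and 34 (-0.95, SE 1.08, edgeR adjusted p = 0.724), or 0.85 without WT library 3. Opa1, its inner membrane counterpart, had 26, 10 and 2 against 30, 32 and 28 (-0.03, SE 1.02, edgeR adjusted p = 0.996). Its means, 61.6 ± 65.7 and 60.3 ± 6.93 normalized CPM (SD, n = 3), were close while the WT libraries spread widely, and without WT library 1 the value was 1.33. With library totals alone Opa1 turned to 0.71, so of the 3 tested fusion genes 1 lay above 0 after TMM and 2 with totals.

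Mfn2, the second mitofusin, shows how single libraries carry a gene here. It had 6, 1 and 5 counts in WT and 465, 5 and 31 labelled DKO, and 88.9% of its summed normalized CPM lay in library 1 labelled DKO. It was not tested, because too few libraries reached the count minimum. The proteases that cleave OPA1 were low: Oma1 had 3, 0 and 1 counts against 11, 3 and 1, and Yme1l1 had 10, 5 and 2 against 7, 17 and 10.

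Transport genes link mitochondria to motor proteins along microtubules. Rhot1 (chromosome 11, 80209019 to 80267907), which encodes the outer membrane GTPase Miro1, had 13, 28 and 20 counts in WT and 131, 155 and 102 labelled DKO. The groups did not overlap, at 93.7 ± 22.4 against 260 ± 54.1 normalized CPM (SD, n = 3), and the log2 fold change, 1.47 (SE 0.94), had an edgeR adjusted p of 0.515 and lay between 1.35 and 1.74 with 1 library left out. The motor adaptor Trak2 had 16, 9 and 10 counts against 53, 51 and 42, with WT library 1 just above library 3 labelled DKO (0.79, SE 0.89, edgeR adjusted p = 0.721). Trak1, its paralog, had 9, 79 and 2 against 88, 18 and 24 (-0.39, SE 1.22, edgeR adjusted p = 0.919) and ran from -1.50 to 1.72 with 1 library left out. Thus 2 of 3 tested transport genes lay above 0, and all 3 with library totals alone. Rhot2, the gene of Miro2, had 0 to 4 counts per library; 1307 of its exonic bases are shared with the read-through gene Gm20683.

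Genes of MICOS, the complex that holds cristae junctions, were resolved for 1 member. Immt, its core subunit mitofilin, had 6, 2 and 43 counts in WT and 31, 37 and 49 labelled DKO (-0.17, SE 1.13, edgeR adjusted p = 0.97), or 2.08 without WT library 3 and 0.56 with library totals alone. Chchd3 had 3, 10 and 28 against 11, 4 and 8 and Chchd6 7, 0 and 0 against 3, 4 and 5, both untested. WT library 3 was thus the highest for Immt and for Chchd3.

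**Figure D2:**
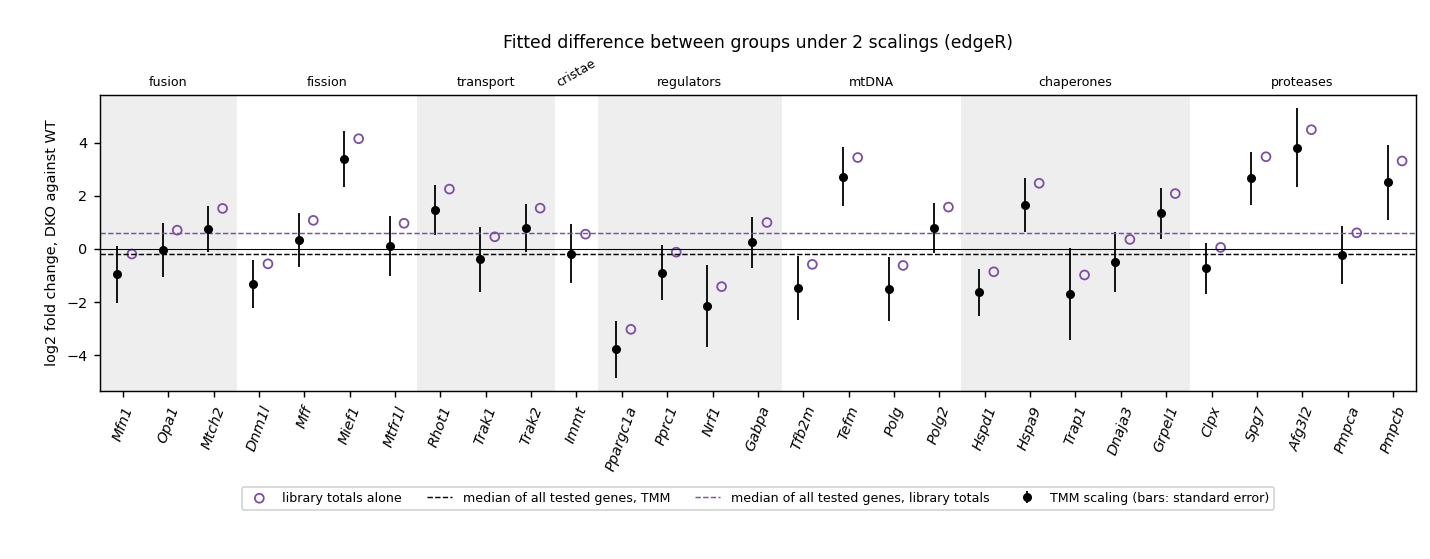
Log2 fold change (libraries labelled DKO against WT) of each tested member on the vertical axis, with TMM scaling (black, bars are standard errors) and with library totals alone (open circles). Dashed lines give the medians of all tested genes, -0.17 and 0.62. Ppargc1a is lowest at -3.79 and Afg3l2 highest at 3.82, and every member is higher under library totals.

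Chaperones of the matrix lay in both directions. Hspd1 (chromosome 1, 55077835 to 55088243), the chaperonin HSP60, had 14, 22 and 9 counts in WT and 7, 12 and 14 labelled DKO. Scaled to library size, each WT library was higher, at 68.5 ± 19.3 against 21.7 ± 5.65 normalized CPM (SD, n = 3), with a log2 fold change of -1.64 (SE 0.90, edgeR adjusted p = 0.458), -0.86 with library totals and -1.78 to -1.33 with 1 library left out. Its raw counts overlapped. Its co-chaperonin Hspe1 lies head to head with it on the other strand, and 112 of their exonic bases overlap. Hspe1 had 0 counts in each WT library and 4, 0 and 1 labelled DKO, below what could be compared.

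Of the HSP70 system, Hspa9 and Grpel1 lay above 0 and Dnaja3 below. Hspa9, mortalin, the motor of import and a folding chaperone, had 1, 14 and 7 counts in WT and 40, 68 and 47 labelled DKO. The groups did not overlap (32.0 ± 24.8 and 102 ± 19.9 normalized CPM, SD, n = 3), with a log2 fold change of 1.65 (SE 1.01, edgeR adjusted p = 0.495) that was 2.31 without WT library 2. Grpel1, its nucleotide exchange factor, had 9, 4 and 4 against 14, 47 and 48, with library 1 labelled DKO inside the WT range (1.34, SE 0.97, edgeR adjusted p = 0.563) and 2.01 without WT library 1; it shares 411 exonic bases with Tada2b on the other strand. Both kept their sign under every library left out and both scalings, with neither past the test. The HSP40 partner Dnaja3 lay at -0.49 (SE 1.12) with overlapping groups, at 1.72 without WT library 2 and at 0.36 with library totals.

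Trap1, the HSP90 of mitochondria, had 0, 0 and 73 counts in WT and 2, 17 and 41 labelled DKO. Its log2 fold change of -1.71 (SE 1.73, edgeR adjusted p = 0.688) rested on WT library 3, without which both WT libraries left were at 0 and the fitted value, which then depends on the prior count, was 6.94. After TMM 2 of 5 tested chaperones lay above 0, and 3 with library totals alone.

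Proteases and peptidases had a median log2 fold change of 2.52 over 5 tested genes, beside -0.17 for all genes tested, and 3.32 beside 0.62 with library totals. That median is the value of Pmpcb, which was 0.41, and still the median of the 5, without library 2 labelled DKO. Both listed genes of the m-AAA protease, which clears and processes inner membrane proteins, had no overlap between groups. Spg7 (chromosome 8, 123062942 to 123097760), paraplegin, had 3, 10 and 2 counts in WT and 90, 70 and 48 labelled DKO, at 21.6 ± 15.0 and 142 ± 56.4 normalized CPM (SD, n = 3). This gave a log2 fold change of 2.67 (SE 1.00, edgeR adjusted p = 0.39; DESeq2 adjusted p = 0.054), from 2.42 to 3.44, the latter without WT library 2, with 1 library left out. Afg3l2, the other listed subunit, had 3, 0 and 0 against 10, 15 and 89, with 72.3% of the summed value in library 3 labelled DKO. Its fitted value, 3.82 (SE 1.48, edgeR adjusted p = 0.39; DESeq2 adjusted p = 0.0548), ran from 2.35 without that library to 7.88 without WT library 1, where the WT libraries left were at 0. The means were 5.22 ± 9.05 and 74.2 ± 85.1 normalized CPM (SD, n = 3), and WT library 1, at 15.7, stood not far below library 1 labelled DKO at 22.6. The size of the difference was thus steadier for Spg7 than for Afg3l2, whose WT counts did not exceed the floor of 3.

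The processing peptidase, which removes import signals, gave no such picture. Pmpcb, its catalytic subunit, had 3, 2 and 23 counts in WT and 35, 386 and 19 labelled DKO. Of its summed normalized CPM 73.2% lay in library 2 labelled DKO, without which the log2 fold change went from 2.52 (SE 1.41, edgeR adjusted p = 0.467) to 0.41; without WT library 3 it was 4.61. Pmpca, the other subunit, lay at -0.24 (SE 1.09) and at 1.33 without WT library 2, with 1, 41 and 8 counts against 29, 28 and 30, and shares 874 exonic bases with Inpp5e on the other strand. Clpx, the unfoldase of CLPXP, had 39, 51 and 7 against 55, 43 and 31 (-0.73, SE 0.97, edgeR adjusted p = 0.766) and was at 0.06 with library totals. So 3 of the 5 tested lay above 0 after TMM, and all 5 with library totals alone.

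Other proteases were near the floor. Clpp, the peptidase that works with Clpx, had 0 counts in each WT library and 6, 3 and 3 labelled DKO. Its mean there, 8.30 normalized CPM, is below the floor of any single WT library and above the 4.68 of the WT group. Lonp1, the main matrix protease, had 14, 0 and 5 counts against 4, 13 and 9, and Htra2, an intermembrane space protease, 5, 0 and 0 against 0, 0 and 1. Of Htra2's exons 753 bases are shared with Aup1 and 535 with Loxl3.

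**Figure D3:**
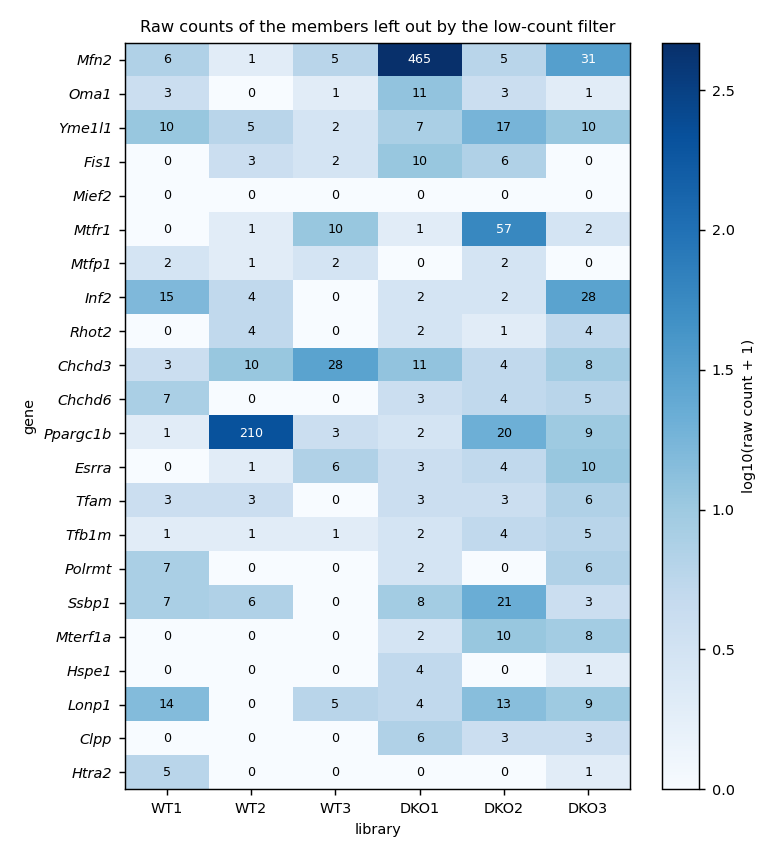
Raw counts (printed in each cell) of the 22 members left out by the filter on low counts, genes in rows and libraries in columns, shaded by log10 of the count plus 1. Most cells are under 10, while Mfn2 (465 in library 1 labelled DKO) and Ppargc1b (210 in WT library 2) each have 1 dark cell.

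Together the 51 members held 0.122%, 0.192% and 0.232% of counts in WT, by library number, and 0.357%, 0.33% and 0.254% in those labelled DKO. As shares of library totals the groups did not overlap, in the direction in which more symbols were counted. With the TMM factors applied to the same counts, the members' sums overlapped between groups. The medians over the tested members did not, also after TMM. As log2 of normalized CPM plus 1 they were 5.02, 5.31 and 5.59 in WT and 6.15, 6.03 and 6.06 labelled DKO. No such medians over all tested genes are given here to set beside them. Different genes led: Ppargc1a in WT library 1 (12.1% of the members' counts), Ppargc1b in WT library 2 (21.9%), Nrf1 in WT library 3 (39.4%), and Mfn2, Pmpcb and Mief1 in libraries 1, 2 and 3 labelled DKO (29.3%, 22.7% and 7.86%). Of the 29 tested members 8 (27.6%) had over 50% of their summed normalized CPM in 1 library, 5 of them in a WT library, beside 29.7% of all tested genes. With 1 library left out, 21 of the 29 fold changes shifted by over 1.5-fold and 13 turned sign.

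Levels were compared between genes per kilobase of exon, as mean normalized CPM per kilobase. Among tested members the highest in WT were Nrf1 at 52.2, Trap1 at 49.7, Clpx at 41.7 and Tfb2m at 41.4, of which all but Clpx were led by 1 library. In the libraries labelled DKO they were Pmpcb at 53.6 and Tefm at 35.5, both led by 1 library, Rhot1 at 35.0 and Spg7 at 31.4. Clpx, at 25.1, followed, and was the member found among the 5 highest in both groups, with at most 29.1% of its summed normalized CPM in 1 library.

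**Figure D4:**
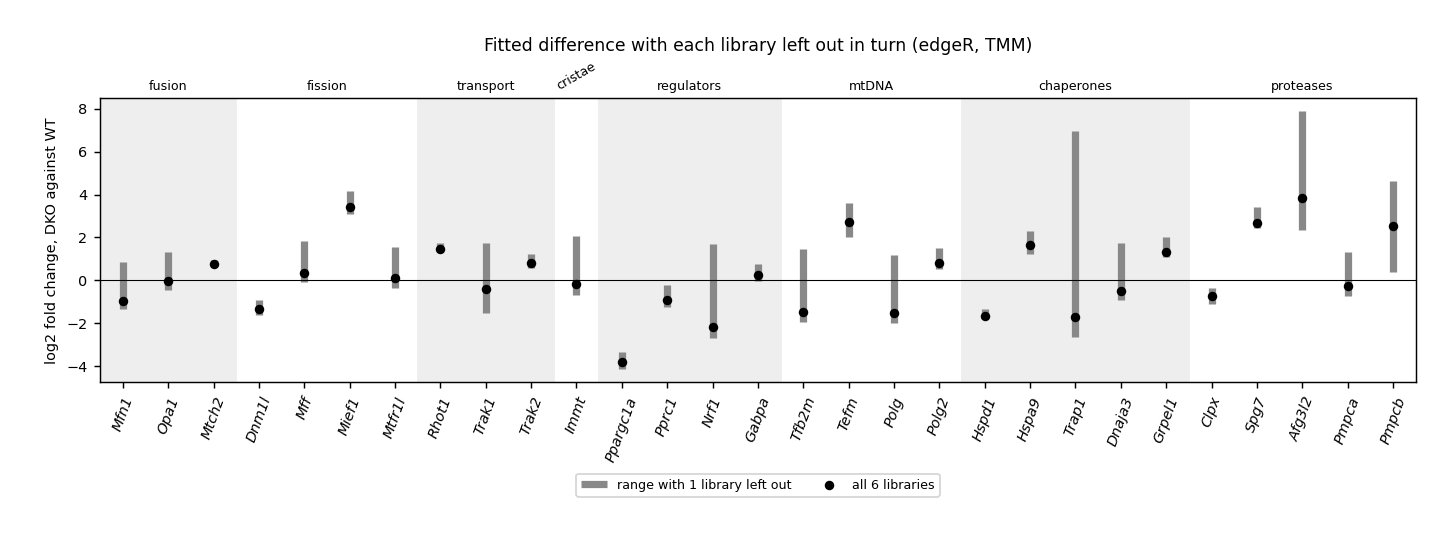
Log2 fold change of each tested member with all 6 libraries (points) and its range with each library left out in turn (grey bars). The bars of Ppargc1a, Mief1, Spg7, Rhot1 and Hspd1 stay on 1 side of 0, and that of Trap1 runs from -2.62 to 6.94.

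Neighbouring mitochondrial pathways gave values in both directions as well. Of 102 further genes listed, 96 had a row and 35 were tested, with 16 above 0 and 19 below, a median of -0.05, and 23 above and 12 below with library totals alone. None of the 35 passed edgeR's test. An unadjusted edgeR p under 0.05 was found for 3, all lower where the label was DKO, beside 12.1% of all tested genes in either direction. The groups did not overlap for 2 higher (Grpel2 and Fastkd1) and 1 lower (Mgme1), 8.57% beside 19.2% of all tested genes. Grpel2 and Fastkd1 needed the libraries labelled DKO, where they were high, to meet the count filter, so their non-overlap is not separate support.

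For protein import 5 of 8 tested genes lay above 0 (6 with library totals). Mtx3, an outer membrane sorting protein, was at -2.97 (SE 1.34, edgeR adjusted p = 0.412) with 175 counts in WT library 2, and at -0.17 without it. Mipep, a peptidase that trims imported proteins, was at -1.73 (SE 1.09, edgeR adjusted p = 0.509), and at -1.04 without WT library 1. Mipep had 37, 35 and 2 counts against 18, 10 and 22, with overlapping groups.

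Of 11 further genes for dynamics and cristae 5 lay above 0 (7 with library totals). Myo19, a myosin on mitochondria, had 24, 625 and 5 counts against 13, 11 and 1, at -5.61 (SE 1.98, edgeR adjusted p = 0.39; DESeq2 adjusted p = 0.00446) and at -2.08 without WT library 2. Armc10, a mitochondrial armadillo protein, was at -1.77 (SE 0.97, edgeR adjusted p = 0.456), and at -1.17 without WT library 2.

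Of 11 further genes for mitochondrial DNA and RNA 4 lay above 0 (7 with library totals). Supv3l1, an RNA helicase of mitochondria, had 3, 358 and 276 counts against 15, 55 and 41, at -3.72 (SE 1.67, edgeR adjusted p = 0.41; DESeq2 adjusted p = 0.041). Fastkd1, of a family of mitochondrial RNA binding proteins, had 6, 0 and 0 against 17, 21 and 46 with no overlap, at 2.42 (SE 1.34, edgeR adjusted p = 0.463), and at 7.46 without WT library 1, where both WT libraries left were at 0. Mgme1, an exonuclease of mitochondrial DNA, had 18, 7 and 6 against 2, 12 and 12, lower in each library labelled DKO once normalized, at -1.58 (SE 1.01, edgeR adjusted p = 0.517), and at -0.72 without WT library 1.

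Of 5 further chaperone and protease genes 2 lay above 0 (3 with library totals). Grpel2, the paralog of Grpel1, had 2, 12 and 1 counts against 33, 27 and 89 with no overlap, at 2.20 (SE 1.09, edgeR adjusted p = 0.421), or 3.64 without WT library 2. Dnajc11, an HSP40 protein tied to cristae, was at -0.90 (SE 0.98, edgeR adjusted p = 0.711), or 0.24 without WT library 2.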

How the data were processed

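RNA from about 1000 sorted NP-binding splenic memory B cells per library was made into polyadenylated RNA libraries with a single-cell kit, per the labels' protocols. The authors deposited raw read counts per gene symbol, 35186 symbols in 6 columns, with 0 columns unmatched. The submitters' processing notes name mm10, R 3.6.3, edgeR, STAR and CASAVA, with no roles. Counter, strand setting and annotation were not given in the sources used here.

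Counts were filtered (filterByExpr, minimum count 10), scaled by TMM and fitted without covariates by edgeR 4.0.16 (robust quasi-likelihood; limma 3.58.1, R 4.3.3), with Benjamini-Hochberg adjustment over 8895 genes and a threshold of 0.05. SE is the log2 fold change over the square root of F. Scripts were tested on simulated data, with the pass condition set at a lower spread than in these libraries. Here the common biological coefficient of variation was 0.915, so that condition does not show what change could be found at this spread. Positions and exons come from GENCODE M21 (mm10; all 51 members matched by symbol), promoters from RefSeq. Python was 3.11.15. With 1 count worth 1.84 to 5.25 normalized CPM, low values are imprecise; the floor is 3 counts.

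Members and lists were chosen with earlier results of these data known. Values are given in full for up to 4 tested members per function with the smallest p, for all whose groups did not overlap, and for 2 genes per further list; Mgme1, untested members and those marked as led by 1 library were named after their values were seen. Alternatives were DESeq2 1.42.0 and its size factors, no scaling factor, no filter, limma-voom, the replicate block and each library left out; DESeq2 on all genes, and non-overlap under other settings, were added after seeing the data.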

Additional observations from a re-analysis of the deposited data

How the results depend on the processing

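No member passed edgeR's test under any scaling, filter, block or left-out library. The count over all genes was 0 in edgeR and limma-voom, but 130 with no filter on low counts (0 members), 601 in DESeq2 (2 members) and 254 in DESeq2 on all genes (1 member). The members' median of -0.03 became 0.71 with no scaling factor, 0.29 with no filter, 0.56 in limma-voom and 0.75 with the replicate block, and -0.35 to 0.85 with 1 library left out, where WT library 2 gave 0.85 and WT library 3 gave 0.83. Without 1 library, members with groups that did not overlap numbered 7 to 13 higher and 2 to 4 lower.

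Single members turned sign as follows. With no scaling factor these were Opa1 (0.71), Trak1 (0.46), Immt (0.56), Dnaja3 (0.36), Clpx (0.06) and Pmpca (0.61). With no filter they were Opa1 (0.29), Immt (0.19) and Pmpca (0.04). In limma-voom they were Opa1 (0.67), Trak1 (0.50), Immt (0.53), Tfb2m (0.12), Polg (0.07), Trap1 (0.41), Dnaja3 (0.55) and Pmpca (0.75). With DESeq2's size factors and in DESeq2 Mtfr1l was at -0.02. Leaving out 1 library gave -0.45 to 1.33 for Opa1, -0.37 to 1.56 for Mtfr1l, -0.09 to 1.83 for Mff, -1.50 to 1.72 for Trak1, -1.92 to 1.44 for Tfb2m, -1.97 to 1.19 for Polg, -0.92 to 1.72 for Dnaja3, -0.72 to 1.33 for Pmpca, -1.34 to 0.85 for Mfn1, -0.69 to 2.08 for Immt, -2.69 to 1.70 for Nrf1, -0.02 to 0.76 for Gabpa and -2.62 to 6.94 for Trap1. Why these moved was not tested.

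What libraries with equal replicate numbers share was not given in the sources used here. The correlations of same-numbered libraries' deviations from their group means were small, at 0.023, 0.026 and 0.037. Those of libraries with unlike numbers were all below 0, from -0.024 to -0.004, so each library correlated best with its own number. Whether the numbers mark a shared batch was not tested. The replicate block called 0 genes, and with it Opa1 was at 0.53, Trak1 at 0.55, Immt at 0.89, Nrf1 at 0.50, Trap1 at 0.92, Dnaja3 at 0.57 and Pmpca at 0.51.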

Other observations

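Twnk had no row under that symbol, but RefSeq lists Peo1 as its older name, and Peo1 had 18, 2 and 0 counts in WT and 5, 7 and 5 labelled DKO. It encodes the helicase that unwinds mitochondrial DNA, and the groups overlapped.

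Hspe1, nearly absent here, has annotated processed pseudogenes. Of the 5 with a row, Hspe1-ps4 had 0, 4 and 0 counts in WT and 2, 3 and 8 labelled DKO, Hspe1-ps2 had 0, 0 and 9 against 5, 1 and 3, and Hspe1-ps3 had 7, 0 and 0 against 0, 3 and 0. Hspe1-ps5 and Hspe1-ps6 had 0 in every library. How the counting treated reads matching several places was not given in the sources used here.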
